A study of Schizosaccharomyces pombe 972h- with 8 samples.

Results

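Copper and zinc transport in fission yeast was followed through 6 genes, the copper carriers ctr4, ctr5 and ctr6, the copper regulator cuf1, and the zinc carriers zrt1 and zhf1. They were taken by name from the 4854 genes that both deposited tables hold. A row with the name itself was present for 5 of them, and zrt1 was found under its systematic name SPBC16D10.06. The H2O2 samples are wild-type Schizosaccharomyces pombe 972 h- cells, with no mutation or added gene, 30 minutes after hydrogen peroxide was added to 0.5 mM. The control samples are cells of the same cultures taken before the addition. Cultures grew in yeast extract medium, and its copper and zinc content is not given in the sources used here. There were 2 cultures, each from its own single colony, and RNA of each sample was read on 2 Affymetrix platforms, which makes 8 arrays. The tiling array (Sp_TMA) read the RNA of each strand separately, while target for the expression array (Sp_EMA) was made double-stranded, so signal from either strand counts there.

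Copper and zinc are cofactors of many enzymes and are toxic in excess, so cells control how much of each metal enters the cytosol. In fission yeast, Ctr4 and Ctr5 together form the high-affinity copper importer of the plasma membrane, and Ctr6 sits in the vacuole membrane and returns stored copper to the cytosol. Cuf1 is the transcription factor that switches on the genes of these Ctr proteins when copper is scarce, through promoter sites called copper-signalling elements (CuSE). Zrt1, a carrier of the ZIP family, takes up zinc at the plasma membrane, and the repressor Loz1 shuts its gene off in zinc-rich cells. Zhf1, of the cation diffusion facilitator family, moves zinc into the endoplasmic reticulum.

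The promoter stretches that hold matches to these elements are shown for ctr5, ctr6 and zrt1, to show what the matches look like in genes that Cuf1 and Loz1 are known to control. They were read from the RefSeq genome ASM294v3, 5′ to 3′ on the strand of the gene, with each match in capitals. Positions count back from the first coding base. Stretches lie at chrI:3635277-3635330 for ctr5 (2 of its 4 matches, from -473 and -459), chrII:2100048-2100087 for ctr6 (1 of 3, from -210) and chrII:3606968-3607008 for zrt1 (a Loz1 response element from -907), all on the forward strand.
ctr5: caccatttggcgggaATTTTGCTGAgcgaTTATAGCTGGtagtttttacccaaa
ctr6: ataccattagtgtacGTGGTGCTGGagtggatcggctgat
zrt1: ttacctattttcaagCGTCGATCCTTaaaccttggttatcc

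Over the 1000 bases before the first coding base, on both strands, ctr5 had 4 CuSE matches, ctr6 had 3 and cuf1 had 1, while zrt1 and zhf1 had 0. At least 4 matches were found for 2.24% of 5144 genes and at least 3 for 9.06%, but at least 1 for 64.9%, so that a single match sets no gene apart. The Loz1 element was found before zrt1 and before 1.07% of all genes. These are matches of letters, and binding was not measured.

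Values are log2 signals per gene that the authors made with RMA, so that a difference of 1 is a 2-fold change. Values are not compared across platforms, and across genes they serve only as a rough mark of a low signal. Only differences within a platform are set side by side. Arrays had a median of 10.3 for Sp_TMA and 11.1 for Sp_EMA, and values went down to 4.02 and 5.04. H2O2 arrays were set against control arrays with limma, platform by platform, with Benjamini-Hochberg adjusted p below 0.05 over all 4854 genes as the threshold. On Sp_TMA this called 25.2% of all genes higher and 31.3% lower, and on Sp_EMA 22.7% higher and 36.2% lower. The median change of all genes was -0.05 and -0.07. Permuting 2 and 2 arrays gives an exact p of 0.333 at the least, so limma's p-values lean on the variance shared between genes. RNA of whole cultures was used, so a fall in RNA per cell and fewer cells with the RNA cannot be told apart.

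Of the 6 genes, ctr4, cuf1 and zrt1 fell on both platforms, ctr6 rose on both, zhf1 rose on Sp_TMA alone and ctr5 passed the threshold on neither. That is 3 lower and 2 higher genes on Sp_TMA and 3 lower and 1 higher on Sp_EMA. Of all genes, 31.3% were lower and 25.2% higher on Sp_TMA, and 36.2% lower and 22.7% higher on Sp_EMA. In 5 of the 6 genes on Sp_TMA, all but ctr5, and in all 6 on Sp_EMA, the H2O2 arrays did not overlap the control arrays, but 80.1% and 82.6% of all genes had no overlap either.

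**Figure D1:**
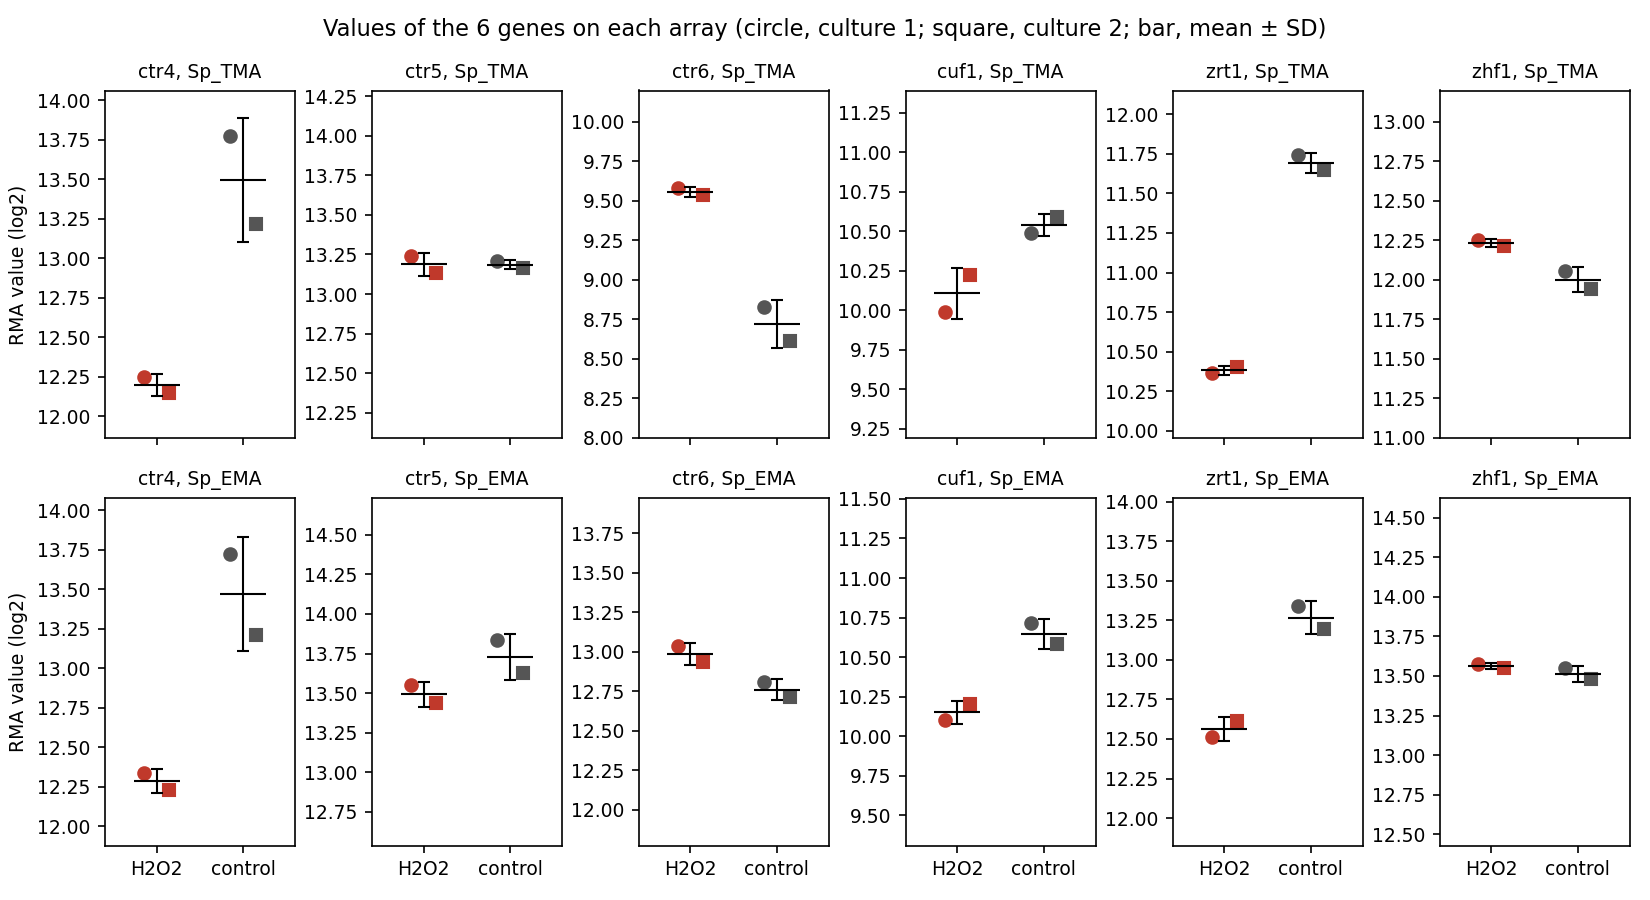
RMA values (log2) of the 6 genes on each array, with H2O2 left of control in each panel, Sp_TMA in the upper row and Sp_EMA in the lower. Circles are culture 1, squares are culture 2, bars are the mean ± SD of 2 arrays, and every panel spans the same range of log2 units from a start of its own. H2O2 lies below control for ctr4, cuf1 and zrt1 and above it for ctr6 on both platforms, and the control arrays of ctr4 are the widest apart.

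The copper importer gene ctr4 (SPCC1393.10) lies on chromosome III of ASM294v3 from 818459 to 819361, forward strand, with 870 coding bases in a single exon. On Sp_TMA its values were 12.25 and 12.15 in H2O2, against 13.77 and 13.22 in control cells. On Sp_EMA they were 12.34 and 12.23 in H2O2, against 13.72 and 13.21 in control cells. Both H2O2 arrays lay about a full log2 unit or more below their own culture's control on each platform. Sp_TMA gave a change of -1.30 with a standard error of 0.18 (limma, adjusted p = 0.00125), 2.45-fold lower, and Sp_EMA one of -1.18 with a standard error of 0.17 (adjusted p = 0.00308), 2.27-fold lower. The cultures differed mainly before the stress. In control cells culture 2 was below culture 1 by 0.55 on Sp_TMA and 0.51 on Sp_EMA, a wider gap than that of 99.3% and 99.4% of genes, while in H2O2 the gap was 0.10 and 0.11. The fall was therefore -1.52 in culture 1 and -1.07 in culture 2 on Sp_TMA, and -1.39 and -0.98 on Sp_EMA. The call held without any 1 of the arrays, with a change of -1.57 to -1.02 on Sp_TMA. On Sp_EMA it was -1.44 to -0.93, and on both platforms the smaller fall was the one without control array 1.

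The partner gene ctr5 (SPAC1142.05, chromosome I from 3635409 to 3636572, forward strand, 522 coding bases in 1 exon) gave a different picture from ctr4. On Sp_TMA it had 13.24 and 13.13 in H2O2, against 13.21 and 13.17 in control cells, so that the groups overlapped. Its change there was 0.0008 (95% interval -0.19 to 0.19, adjusted p = 0.995 from limma). On Sp_EMA it had 13.55 and 13.44 in H2O2, against 13.83 and 13.62 in control cells, where both H2O2 arrays were lower. The change on Sp_EMA was -0.24 (95% interval -0.46 to -0.01, adjusted p = 0.0701), which missed the threshold. With the culture as a replicate block this gene was called lower on Sp_EMA (adjusted p = 0.0242), and it was also called without control array 2 (change -0.34, adjusted p = 0.0201). On either platform the interval of ctr5 lay wholly above that of ctr4, which was -1.72 to -0.87 on Sp_TMA and -1.62 to -0.74 on Sp_EMA. In each culture the gap was wide as well, since ctr5 changed by 0.03 and -0.03 on Sp_TMA where ctr4 changed by -1.52 and -1.07.

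Among the ctr genes, the gene of the vacuolar carrier, ctr6 (SPBC23G7.16), was the one that rose. It lies on chromosome II from 2100115 to 2101253, forward strand, with 447 coding bases in 5 exons. On Sp_TMA its values were 9.58 and 9.53 in H2O2, against 8.83 and 8.62 in control cells. On Sp_EMA they were 13.03 and 12.94 in H2O2, against 12.81 and 12.71 in control cells. Every H2O2 array was above both control arrays of its platform, by far more on Sp_TMA. Sp_TMA gave a change of 0.83 with a standard error of 0.10 (limma, adjusted p = 6.49e-04), 1.78-fold higher, and Sp_EMA one of 0.23 with a standard error of 0.06 (adjusted p = 0.0295), 1.17-fold higher. By culture it was 0.75 and 0.92 on Sp_TMA, and 0.23 in each culture on Sp_EMA. The call on Sp_EMA was lost without H2O2 array 1 (change 0.18), without H2O2 array 2 (0.28) and without control array 2 (0.18), while that on Sp_TMA held without any 1 of the arrays (0.73 to 0.94).

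The regulator gene cuf1 (SPAC31A2.11c, chromosome I from 407714 to 409845, reverse strand, 1236 coding bases in 1 exon) fell by less than ctr4. Its values on Sp_TMA were 9.99 and 10.22 in H2O2, against 10.49 and 10.59 in control cells. On Sp_EMA they were 10.10 and 10.20 in H2O2, against 10.71 and 10.58 in control cells. Both H2O2 arrays were below both control arrays on each platform. Sp_TMA gave a change of -0.43 with a standard error of 0.10 (limma, adjusted p = 0.0122), 1.35-fold lower, and Sp_EMA one of -0.50 with a standard error of 0.07 (adjusted p = 0.00301), 1.41-fold lower. On Sp_TMA the call was lost without control array 2 (change -0.38, adjusted p = 0.069). Culture 1 changed by -0.50 and culture 2 by -0.37 on Sp_TMA, and on Sp_EMA the changes were -0.61 and -0.38.

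The zinc importer gene zrt1 (SPBC16D10.06, chromosome II from 3607177 to 3609330, forward strand, 1227 coding bases in 1 exon) had the smallest adjusted p of the 6 genes on both platforms. On Sp_TMA it had 10.36 and 10.40 in H2O2, against 11.74 and 11.65 in control cells. On Sp_EMA it had 12.51 and 12.62 in H2O2, against 13.34 and 13.20 in control cells. The arrays of a group lay at most 0.14 apart, and the groups were well apart on each platform. Sp_TMA gave a change of -1.31 with a standard error of 0.08 (limma, adjusted p = 5.66e-05), 2.49-fold lower, and Sp_EMA one of -0.71 with a standard error of 0.07 (adjusted p = 0.001), 1.63-fold lower. It was -1.38 and -1.25 by culture on Sp_TMA and -0.83 and -0.58 on Sp_EMA, and both calls held without any 1 of the arrays.

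The gene of the zinc carrier of the endoplasmic reticulum, zhf1 (SPAC23C11.14, chromosome I from 2158307 to 2160086, forward strand, 1164 coding bases in 1 exon), moved little. On Sp_TMA its values were 12.25 and 12.22 in H2O2, against 12.06 and 11.94 in control cells. On Sp_EMA they were 13.58 and 13.55 in H2O2, against 13.55 and 13.48 in control cells. The H2O2 arrays were above the control arrays on both platforms, by a hair on Sp_EMA. The change was 0.23 on Sp_TMA (adjusted p = 0.0474 from limma), 1.17-fold higher, and 0.05 on Sp_EMA (95% interval -0.09 to 0.19, adjusted p = 0.464). The call on Sp_TMA was lost without any 1 of the 4 arrays (0.18 to 0.29). It was also lost after quantile normalization of the gene values (change 0.07, limma, adjusted p = 0.47). With the culture as a replicate block it was lost too (limma, adjusted p = 0.0989), in a fit that leaned heavily on the variance shared between genes.

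**Figure D2:**
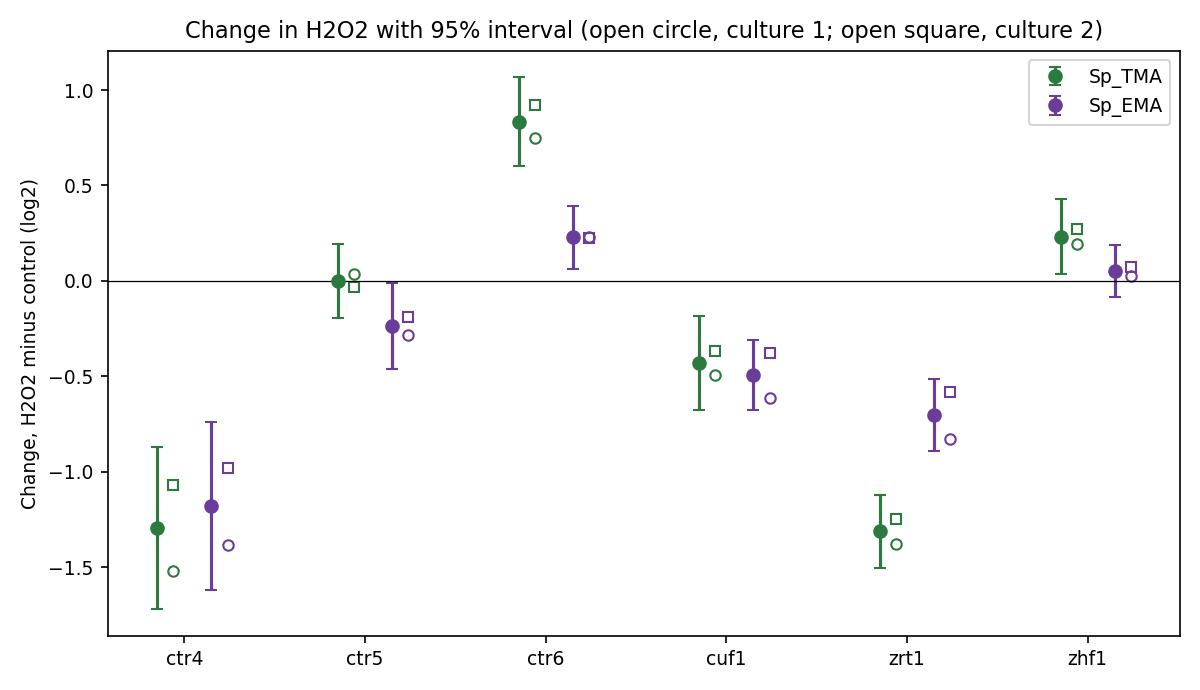
Change in H2O2 minus control (log2) of each gene, with Sp_TMA in green and Sp_EMA in purple. Filled points are the mean of 2 cultures with limma's 95% interval, and open circles and squares are cultures 1 and 2. The intervals of ctr4, cuf1 and zrt1 lie below 0 and that of ctr6 above 0 on both platforms, while ctr5 is at 0.0008 on Sp_TMA.

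The platforms read the same RNA, and ctr6 and zrt1 changed by different amounts on them. Subtracting the Sp_EMA change from the Sp_TMA change left 0.61 for ctr6 (standard error 0.12, adjusted p = 0.0459 from limma over 8 arrays) and -0.61 for zrt1 (standard error 0.11, adjusted p = 0.0322). So ctr6 rose more on Sp_TMA and zrt1 fell more on Sp_TMA. Over all genes this test called 1.4% as higher and 0.536% as lower on Sp_TMA than on Sp_EMA. With the culture as a replicate block within each platform both calls were lost (adjusted p = 0.0544 for ctr6 and 0.0721 for zrt1). With the replicate block across platforms, the fit had 1 difference per culture for each gene and leaned heavily on the variance shared between genes. Both calls held in that fit (limma, adjusted p = 6.56e-04 and 5.91e-04). They were also lost without any 1 of the arrays on both platforms. Almost no gene of all was called in those fits, so that the loss says little about ctr6 and zrt1 in particular. The differences there were 0.55 to 0.67 for ctr6 and -0.64 to -0.57 for zrt1. The other 4 genes missed the threshold, with differences of -0.11 for ctr4 (95% interval -0.75 to 0.53), 0.24 for ctr5 (-0.04 to 0.52), 0.06 for cuf1 (-0.24 to 0.37) and 0.18 for zhf1 (-0.03 to 0.40). These intervals treat the 8 arrays as independent. A gap between cultures that both platforms share, as in the control cells of ctr4, adds to their width.

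**Figure D3:**
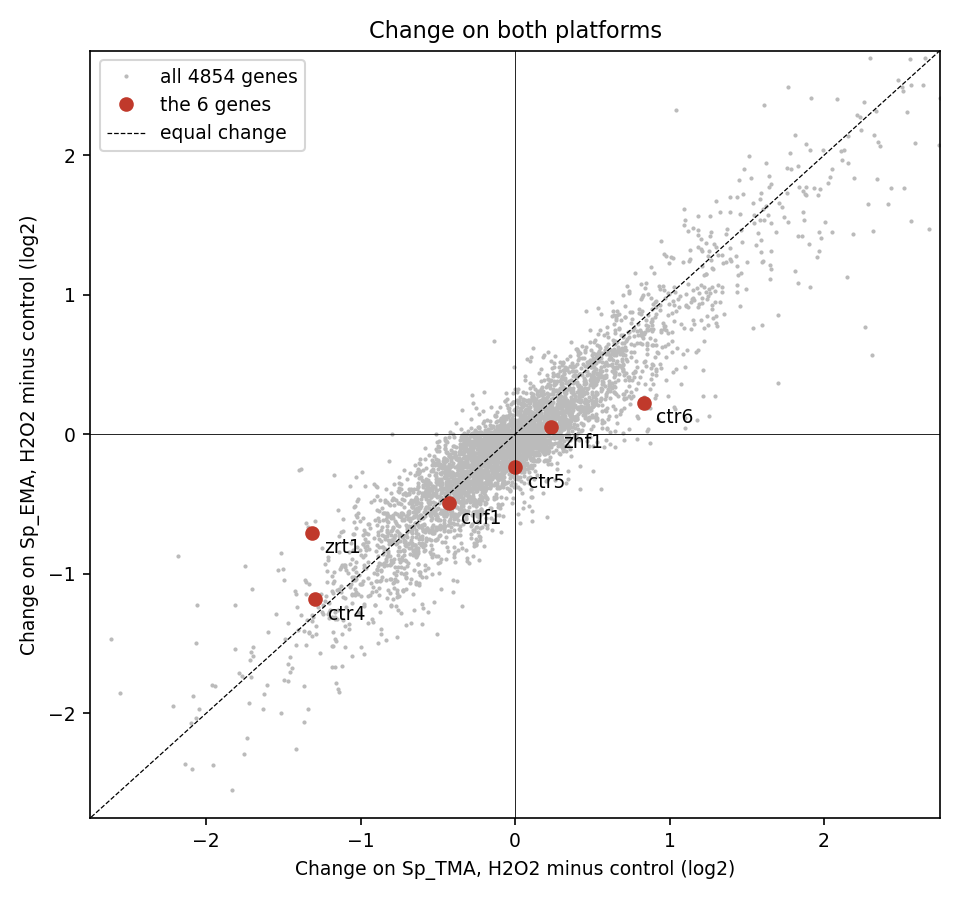
Change on Sp_EMA against change on Sp_TMA (log2) for all 4854 genes in grey and the 6 genes in red, with a dashed line of equal change. Of the 4854 genes, 56 lie beyond the axes. ctr4 and cuf1 sit near the dashed line, zrt1 above it and ctr6 below it.

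Transcripts of the opposite strand are read by Sp_EMA together with the gene and by Sp_TMA apart from it. In ASM294v3 the long non-coding RNA SPNCRNA.5491 spans all 447 coding bases of ctr6 on the opposite strand, and SPNCRNA.2967 spans all 1164 of zhf1. SPNCRNA.2160 covers 321 coding bases of cuf1 (26.0%) and SPNCRNA.923 covers 95 of ctr5 (18.2%). No annotated opposite-strand gene reaches the coding bases of ctr4 or zrt1, although sir2 and SPNCRNA.1622 overlap the untranslated ends of zrt1. Of 4845 genes with a gene model, 82.1% had such an overlap and 22.8% were spanned in full. The difference between platforms was called for 2.17% of genes spanned in full and 1.87% of the others, with a median difference of 0.08 and 0.04. The levels of these non-coding RNAs were not analysed here, and their part in the differences of ctr6 was not tested.

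**Figure D4:**
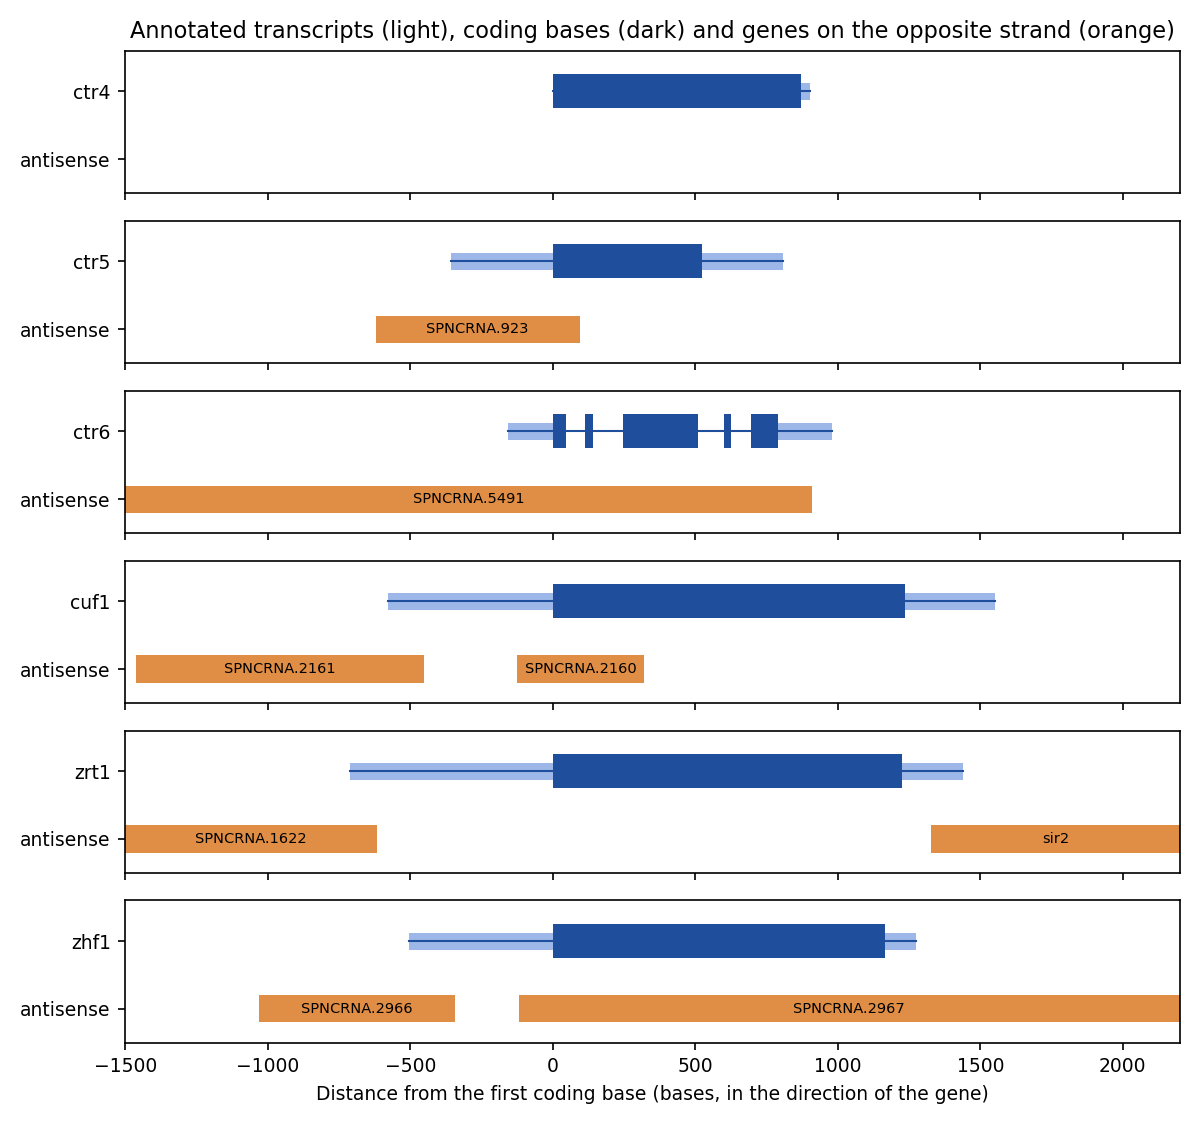
Gene models of the 6 genes, drawn to scale as distance in bases from the first coding base, with the annotated transcript in light blue, coding bases in dark blue and annotated genes of the opposite strand in orange. Orange bars that reach an edge go on beyond it. The coding bases of ctr6 and zhf1 are spanned in full, and those of ctr4 and zrt1 are free.

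Of 15 further genes of copper handling, 13 were measured, with 5 higher, 3 lower and 5 not called on Sp_TMA, and 2 higher, 3 lower and 8 not called on Sp_EMA. Over all genes the shares were 25.2% higher and 31.3% lower on Sp_TMA, and 22.7% and 36.2% on Sp_EMA, and nothing particular to the list is read from its counts. The median change was 0.25 and 0.05, against -0.05 and -0.07 over all genes. The pump gene ccc2, which loads copper into the secretory pathway, rose on both platforms, with a change of 0.95 on Sp_TMA and 0.75 on Sp_EMA (limma, adjusted p = 2.81e-04 and 9.60e-04). cao2, of the copper amine oxidase family, rose by 1.70 and 0.86, while its relative cao1 changed by -0.08 and 0.13 and was not called. The signal of cao2 was low, with 7.39 and 7.31 in H2O2, against 5.56 and 5.73 in control cells on Sp_TMA. The multicopper ferroxidase gene fio1 fell, with a change of -1.42 on Sp_TMA and -1.12 on Sp_EMA (limma, adjusted p = 2.81e-04 and 0.00413), and so did the gene of its partner permease, fip1, with -1.23 and -1.16. Of the genes that deliver copper inside the cell, ccs1, the chaperone of superoxide dismutase, was called higher on Sp_TMA alone (0.34, and 0.00 on Sp_EMA), as were the cytochrome oxidase assembly genes cox17 and sco1, at 0.49 and 0.32 on Sp_TMA and 0.19 and 0.06 on Sp_EMA. A further assembly gene, cox19, was called lower on Sp_EMA alone (-0.53, limma, adjusted p = 0.00118), with -0.10 on Sp_TMA (adjusted p = 0.766). Its signal on Sp_TMA was low, with 6.80 and 6.37 in H2O2, against 7.07 and 6.29 in control cells. The standard error there was 0.26, and the call on Sp_EMA alone is not read as a difference between platforms. The difference between the platforms did not pass the test for ccs1 (0.34, adjusted p = 0.142), cox17 (0.30, adjusted p = 0.266) or sco1 (0.25, adjusted p = 0.155). The copper chaperone gene atx1 (0.35 and 0.04) and the superoxide dismutase gene sod1 (0.25 and 0.09) were called on neither platform.

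sod1 varied by culture. On Sp_TMA it had 12.28 and 12.73 in H2O2, against 11.78 and 12.73 in control cells, with the higher value in culture 2 both times. On Sp_EMA it had 13.95 and 14.23 in H2O2, against 13.85 and 14.16 in control cells, again higher in culture 2.

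Zinc genes beyond zrt1 and zhf1 were counted in the same way. Of 8, all measured, 3 were higher, 3 lower and 2 not called on Sp_TMA, and 2 higher, 3 lower and 3 not called on Sp_EMA, with a median change of 0.00 and -0.07, against -0.05 and -0.07 over all genes. The shares of all genes are those given for the copper list, and the zinc counts too are only a description. zrg17 and cis4, whose proteins act as a pair in bringing zinc into the Golgi, both fell, with -1.20 for zrg17 and -0.53 for cis4 on Sp_TMA, and -1.32 for zrg17 and -0.52 for cis4 on Sp_EMA. For zrg17 the values on Sp_TMA were 9.44 and 9.73 in H2O2, against 10.80 and 10.79 in control cells (adjusted p = 2.71e-04 from limma). fet4, a low-affinity metal carrier, fell as well (-0.86 and -0.53). The repressor gene loz1 rose, with 0.45 on Sp_TMA and 0.60 on Sp_EMA (limma, adjusted p = 0.021 and 0.0032). zym1, a metallothionein that binds zinc, rose by 2.30 and 2.70. adh4, an alcohol dehydrogenase gene that zinc represses, changed by 0.06 and 0.04 and was called on neither platform.

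**Figure D5:**
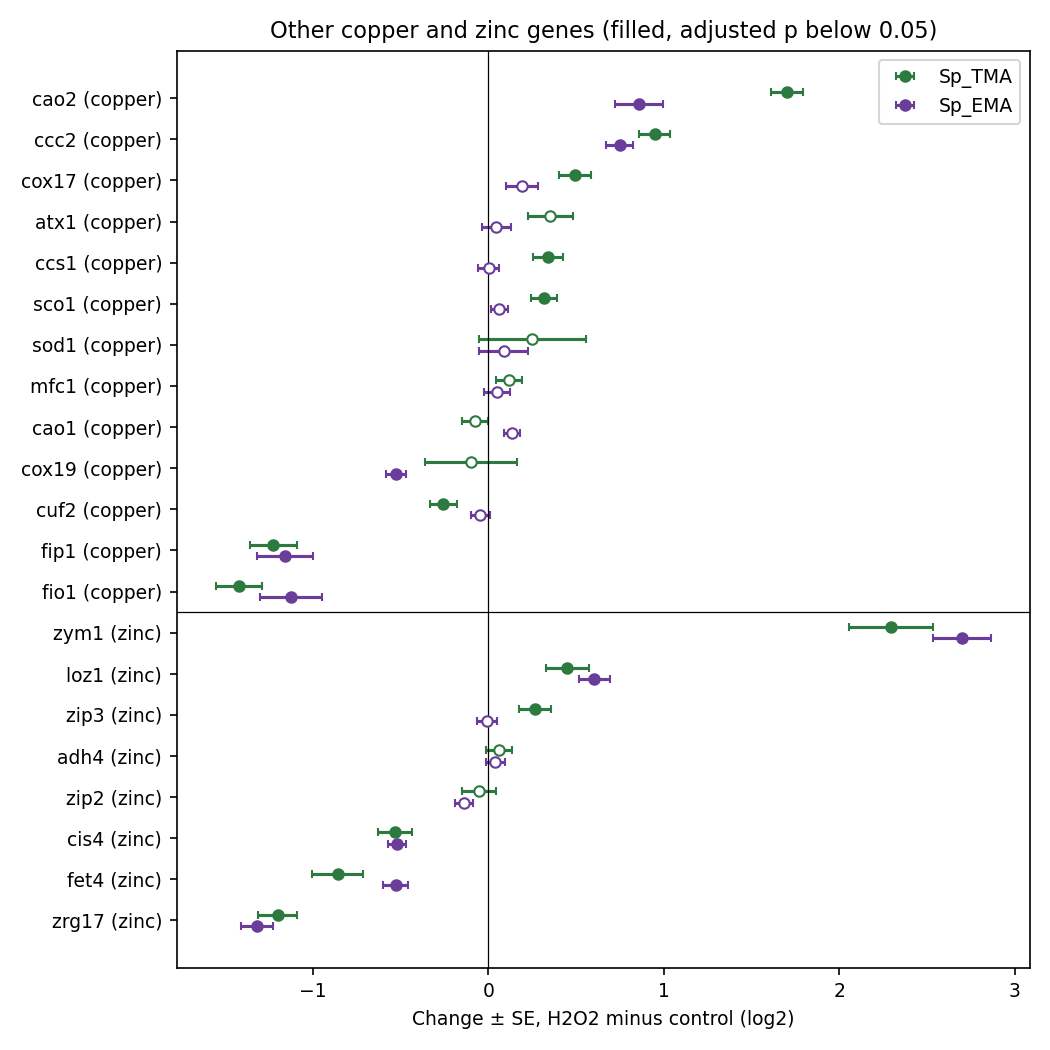
Change in H2O2 minus control (log2, ± limma's standard error) of the other 13 copper genes and 8 zinc genes, with Sp_TMA in green above Sp_EMA in purple. Filled points passed an adjusted p below 0.05. zym1 and cao2 lie farthest right on Sp_TMA, and fio1, fip1 and zrg17 farthest left.

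The genes whose pattern over the 8 arrays was most like that of each gene were found by Euclidean distance, after centring each gene on its mean per platform. For ctr4 these were fip1 (distance 0.24), the serine hydrolase-like gene fsh2 (0.26) and fio1 (0.35), so that the nearest and the third nearest of all genes were the iron uptake pair of the copper list. Like ctr4, both were lower in culture 2 in control cells, a likeness that the choice by distance itself favours. In H2O2 both were lower in culture 2 as well, by more than ctr4 was. fip1 had 12.39 and 12.18 in H2O2, against 13.68 and 13.35 in control cells on Sp_TMA, and 11.74 and 11.46 in H2O2, against 12.96 and 12.57 in control cells on Sp_EMA. For ctr6 the nearest were sib1, the ferrichrome synthetase gene of siderophore synthesis (distance 0.17, with changes of 0.84 on Sp_TMA and 0.36 on Sp_EMA), the glutaredoxin gene grx2 (0.18) and the meiotic cohesin gene rec8 (0.22). For zrt1 they were ptr2, a peptide transporter gene (0.13, with changes of -1.35 and -0.63), the tRNA dihydrouridine synthase gene dus3 (0.23) and SPCC576.19c (0.25). For cuf1 they were gyp10 (0.12), gma12 (0.12) and snt2 (0.14), for ctr5 per1 (0.11), uba2 (0.13) and swc5 (0.13), and for zhf1 nup40 (0.06), rad2 (0.07) and sim3 (0.09). Genes of small change have many near neighbours by this measure, and with 2 conditions a likeness says little beyond a shared direction and size.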

How the data were processed

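RNA from 2 cultures, sampled in H2O2 and before it (control), was read on 2 platforms. The deposited values are log2 signals of genes. The authors derived them by RMA, which corrects background, equalises the quantiles of the arrays and summarises probes, separately for each platform, from probes that they had filtered and grouped by gene with custom chip description files, leaving out genes with few probes. They were used as deposited. Quantile normalization by the authors makes the arrays of a platform share a distribution, so a change of all RNA together would not be seen. The software version is not given in the sources used here.

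Both tables hold the same 4854 genes, of which 4845 were matched by systematic name to the RefSeq annotation of ASM294v3. The authors used an older annotation, and no coordinates come from the files. Upstream windows of 1000 bases were searched for the patterns of the copper-signalling element and the Loz1 response element on both strands. The upstream sequence of ctr4 is not reported here.

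H2O2 was compared with control in limma 3.58.1 (lmFit and eBayes, R 4.3.3, two-sided, Benjamini-Hochberg over all genes), as no test is named in the methods of the study. The difference between platforms was tested as a contrast of the changes over all 8 arrays, so that only differences within a table entered it. Replicate numbers pair the samples, since the labels describe each culture as sampled before and after H2O2. As a check, culture 2 minus culture 1 was taken per gene in H2O2 and in control arrays, and the correlation of these across genes was -0.0585 (Sp_TMA) and 0.253 (Sp_EMA). The number of arrays limits the precision. The main fits of each platform had 2 residual degrees of freedom per gene, with 4.22 and 3.03 added by limma. A replicate block leaves fewer residual degrees of freedom, so that these fits lean more on the variance shared between genes. On Sp_TMA the block gave ctr4 an adjusted p of 2.98e-24, against 0.00125 in the main fit (limma). Calls kept or lost in that fit are therefore no check on the variance of a single gene. The steps were also run on simulated data. Noise there was drawn independently for each array, with no effect of culture, so the simulation does not show how the fits behave with paired cultures. Python 3.11.15 with pandas 2.3.3 handled tables, and matplotlib 3.10.9 drew the plots.

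The 6 genes and the lists of 15 copper and 8 zinc genes were chosen with earlier results of these data known. Of the lists, cox11 and cox23 were not matched. All 6 genes are named, with the 3 nearest genes of each over the 8 arrays and the list genes called on both platforms in one direction. Other list genes were named after their values were seen. Alternatives were an intensity trend, the replicate block, leaving out each array, centred or quantile normalized arrays, leaving out the dimmest 25% of genes, an adjusted p below 0.01 and Student's test.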

Additional observations from a re-analysis of the deposited data

Results flagged for a closer look

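The change of ctr6 was higher on Sp_TMA than on Sp_EMA by 0.61 (log2, adjusted p = 0.0459 from limma over 8 arrays), and that of zrt1 differed by -0.61 (adjusted p = 0.0322), being the more negative on Sp_TMA. What drew attention was the test of the difference between platforms itself. Both are near the threshold, and both passed it or missed it depending on how the cultures entered the fit. In cultures 1 and 2, ctr6 had 0.75 and 0.92 with Sp_TMA, against 0.23 and 0.23 with Sp_EMA, and zrt1 had -1.38 and -1.25, against -0.83 and -0.58, so that both cultures show each direction.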

How the results depend on the processing

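The alternatives gave 185 values for the 6 genes. Of these, 145 kept their direction and their side of the threshold, 32 lost a call, 3 gained one and 5 changed sign. The 145 include every value from testing all rows, which is the main fit again and could not differ. The threshold of 0.01 reads the main fit anew and recomputes nothing. Without single arrays, the change of ctr5 on Sp_TMA ran from -0.0526 to 0.0542, that of zhf1 from 0.18 to 0.29 and that of cuf1 from -0.55 to -0.32, and on Sp_EMA that of ctr6 from 0.18 to 0.28 and that of ctr5 from -0.34 to -0.13. The differences between platforms ran from 0.55 to 0.67 for ctr6, from -0.64 to -0.57 for zrt1 and from -0.0519 to 0.18 for cuf1. With an array left out on both platforms, limma called 0 genes as higher and 0 to 1 as lower on Sp_TMA, where 447 to 500 and 193 to 267 had an unadjusted p below 0.05. With the replicate block, zhf1 was no longer called on Sp_TMA (0.23), ctr5 was called on Sp_EMA (-0.24), and within platforms the differences of ctr6 (0.61) and zrt1 (-0.61) were not called, with 36 and 17 genes called. The block across platforms called 492 and 173. It changed no other call of the 6 genes. An intensity trend also called ctr5 on Sp_EMA (-0.24). Centred arrays gave ctr5 -0.0018 and zhf1 0.23 (not called) on Sp_TMA, and 0.59 for the difference of ctr6 (not called). Quantile normalized values gave ctr5 -0.11 and zhf1 0.0718 on Sp_TMA. At an adjusted p below 0.01, cuf1 (-0.43) and zhf1 (0.23) on Sp_TMA and ctr6 (0.23) on Sp_EMA were lost. Student's test, which shares no variance between genes, lost ctr4 (-1.30), ctr6 (0.83), cuf1 (-0.43) and zhf1 (0.23) on Sp_TMA and ctr4 (-1.18), ctr6 (0.23) and cuf1 (-0.50) on Sp_EMA, and called 548 genes as higher and 614 as lower on Sp_TMA, with 600 higher and 907 lower on Sp_EMA. The cause of these shifts was not tested. ctr6 is among the dimmest 25% of genes on Sp_TMA and has no value there with that filter. Testing all rows of each table changes nothing, since both hold the same genes.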
